A study of Homo sapiens with 8 samples.

Results

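The genes described here are the clustered histone genes, the group that codes for the replication-dependent histone mRNAs. They were chosen by symbol alone, as every entry of the expression table whose name begins with HIST1H, HIST2H, HIST3H or HIST4H, which gave 73 of 26902 entries. By type there were 6 genes for the linker histone H1, 18 for H2A, 20 for H2B, 14 for H3 and 15 for H4. By the cluster named in the symbol, 56 were HIST1 genes (chromosome 6), 13 HIST2 and 3 HIST3 genes (both chromosome 1) and 1 was HIST4H4 (chromosome 12). HIST2H2BA, at 121107175 on chromosome 1, lies apart from the other HIST2 genes, and 5 entries had no RefSeq position. The rule also took in 3 entries that RefSeq lists as transcribed pseudogenes (HIST1H2APS1, HIST2H2BA and HIST2H2BC) and genes known from testis, such as HIST1H1T, HIST1H2AA, HIST1H2BA and HIST3H3. Symbols are those of the table, and 68 of the 73 matched a RefSeq gene of GRCh38.p14 through an older symbol.

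The cells were U2OS, a long-established line from a human osteosarcoma, with either an empty vector or overexpression of QKI7, 1 of the isoforms of QKI, which binds RNA. Every culture, controls included, was given 0.5 mM NaAsO2 (sodium arsenite) for 1 h, which causes oxidative stress, and untreated cells were not analysed here. Each construct gave 2 libraries of input RNA depleted of ribosomal RNA and 2 libraries of ribosome footprints, the RNA fragments of 17 to 34 nt that ribosomes shield from nuclease, read as single 51 nt reads. Nothing in the labels ties the 2 libraries of a group to separate cultures, and the spread that the p-values rest on may be technical.

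Replication-dependent histone mRNAs end in a conserved stem-loop in place of a poly(A) tail. The stem-loop binding protein SLBP holds this end through processing, export, translation and decay, and the U7 snRNP guides the cut that forms it. Most of these genes have no introns. They are transcribed mainly in S phase and feed the nucleosome: H2A, H2B, H3 and H4 form the core that DNA wraps around, and H1 binds the DNA between cores. Replication-independent variants such as H2AFZ (H2A.Z) and H3F3B (H3.3) come from ordinary polyadenylated mRNAs.

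The values are TPM, the share of a library's transcripts per unit of transcript length, so input levels can be set beside each other between genes. Ribosomes read only the coding part of an mRNA. Footprints, and ratios of footprint to input, were not corrected for the coding share of each transcript, which limits comparisons between genes. The table holds no read counts, the depth is unknown, and a value of 0 is given as listed at 0. Entries matched to protein-coding genes took 3.73 to 4.53% of the TPM of inputs and 0.693 to 0.717% of that of footprint libraries. Sums and tests therefore used rescaled TPM, in which the protein-coding entries of each library, histones included, sum to 1000000. QKI stood at 3.01 and 3.45 TPM in vector inputs and at 1749 and 1580 TPM in QKI7 inputs, in the direction the labels give. Of 8 mesenchymal marker genes, 6 were at 1 TPM or more in all 4 inputs, and the summed epithelial, blood and neural lists stayed at or below 0.97 TPM in every input, with no marker at 0 throughout. Across the 30 histone genes tested below, which are not independent of each other, replicate libraries correlated at Pearson r from 0.92 to 0.996.

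Histone mRNA was a far larger part of the footprints than of the input RNA. The clustered histone genes took 0.465% and 0.427% of the protein-coding TPM of the vector inputs and 0.389% and 0.402% of the QKI7 inputs. In the footprint libraries they took 12.4% and 12.1% with the vector and 11.9% and 12.0% with QKI7. The ranges of inputs and footprints lie far apart in both constructs. Summed over the 73 genes, the rescaled TPM was 4460 ± 273 in vector inputs and 122300 ± 2034 in vector footprints (SD, n = 2 each), a ratio of 27.4. In QKI7 cells the sums were 3952 ± 90.8 and 119600 ± 1176 (SD, n = 2 each), a ratio of 30.3. Both differences gave an exact two-sided permutation p of 0.33, the smallest that 2 against 2 libraries allow. On the TPM as deposited, with all other entries left in the total, the ratios were 5.08 with the vector and 4.81 with QKI7. That total includes ERCC spike-ins, at 13.1 to 15.9% of the TPM of inputs and 0.0011 to 0.0012% of that of footprint libraries.

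**Figure D1:**
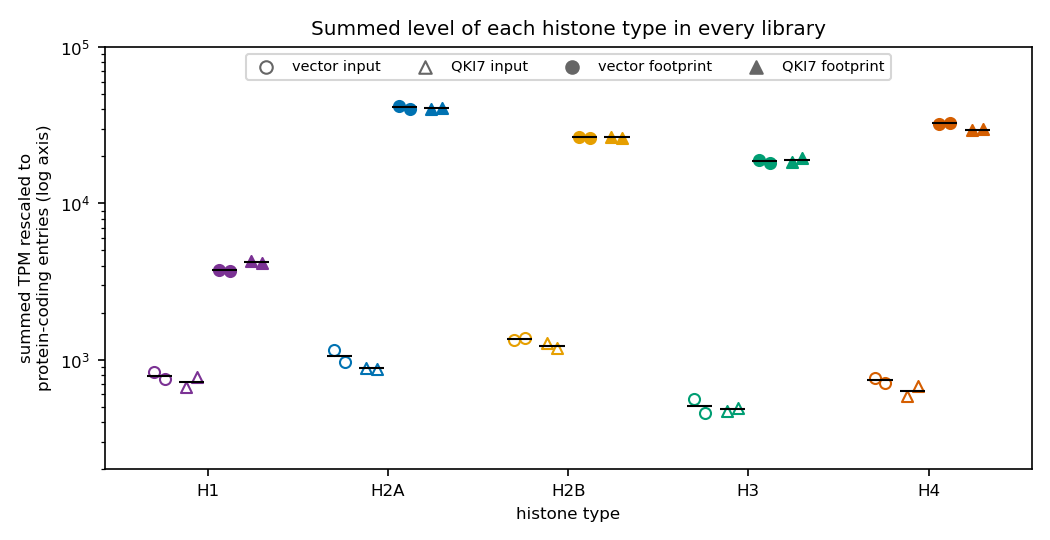
Summed level of each histone type in every library, as TPM rescaled so that protein-coding entries sum to 1000000 (log axis). Each symbol is 1 library and each bar the mean of 2. On this scale the footprint libraries (filled) lie above the input libraries (open) for all 5 types, and the gap is smallest for H1, with ratios of 4.70 in vector and 5.84 in QKI7 cells; on the TPM as deposited the direction of H1 turns, to ratios of 0.871 and 0.930.

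The types differed in how much of this gap they carried. The 4 core types ranged from a ratio of 19.5 (H2B) through 36.5 (H3) and 38.7 (H2A) to 43.9 (H4) in vector cells, and from 21.5 (H2B) to 46.6 (H4) in QKI7 cells. H1 stood apart at 4.70 and 5.84. On the TPM as deposited H1 turned, with sums of 30.6 TPM in inputs and 26.7 TPM in footprints with the vector (a ratio of 0.871) and 31.7 and 29.5 TPM with QKI7 (a ratio of 0.930), while the 4 core types kept ratios of 3.41 to 8.14. The make-up of the histone pool shifted with it. H1 was 18.1% ± 0.967 of histone TPM in the inputs and 3.29% ± 0.291 in the footprints (SD, n = 4 each). For all shares given here the 4 are 2 vector and 2 QKI7 libraries, so the SD takes in any difference between constructs. H2B went from 30.8% ± 2.08 to 21.9% ± 0.294. H2A went from 23.0% ± 1.32 to 33.7% ± 0.323, H4 from 16.3% ± 0.824 to 25.6% ± 1.10 and H3 from 11.8% ± 0.713 to 15.5% ± 0.472. The ranges of input and footprint libraries did not overlap for any of the 5 types. The HIST1 cluster held 70.0% ± 1.05 of the histone input and 68.0% ± 0.593 of the footprints, so the shares of the clusters moved far less than those of the types.

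A minority of the 73 genes made up this signal. Mean input TPM reached 1 for 32 genes and 10 for only HIST1H1E, while mean footprint TPM reached 1 for 41 and 10 for 32 genes. The 10 genes with the highest footprints held 43.5% of all histone footprint TPM, the first 20 held 74.0% and the first 32 held 95.4%. At the other end, 20 genes were under 0.2 TPM in both kinds of library, and HIST1H2APS1, HIST1H4F and HIST1H4G were listed at 0 in all 8. Across the 73 genes, input and footprint means had a Spearman rho of 0.807, and across the 30 genes that passed the minimum for testing it was 0.256. Genes are not independent replicates, and these coefficients describe the spread only.

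**Figure D2:**
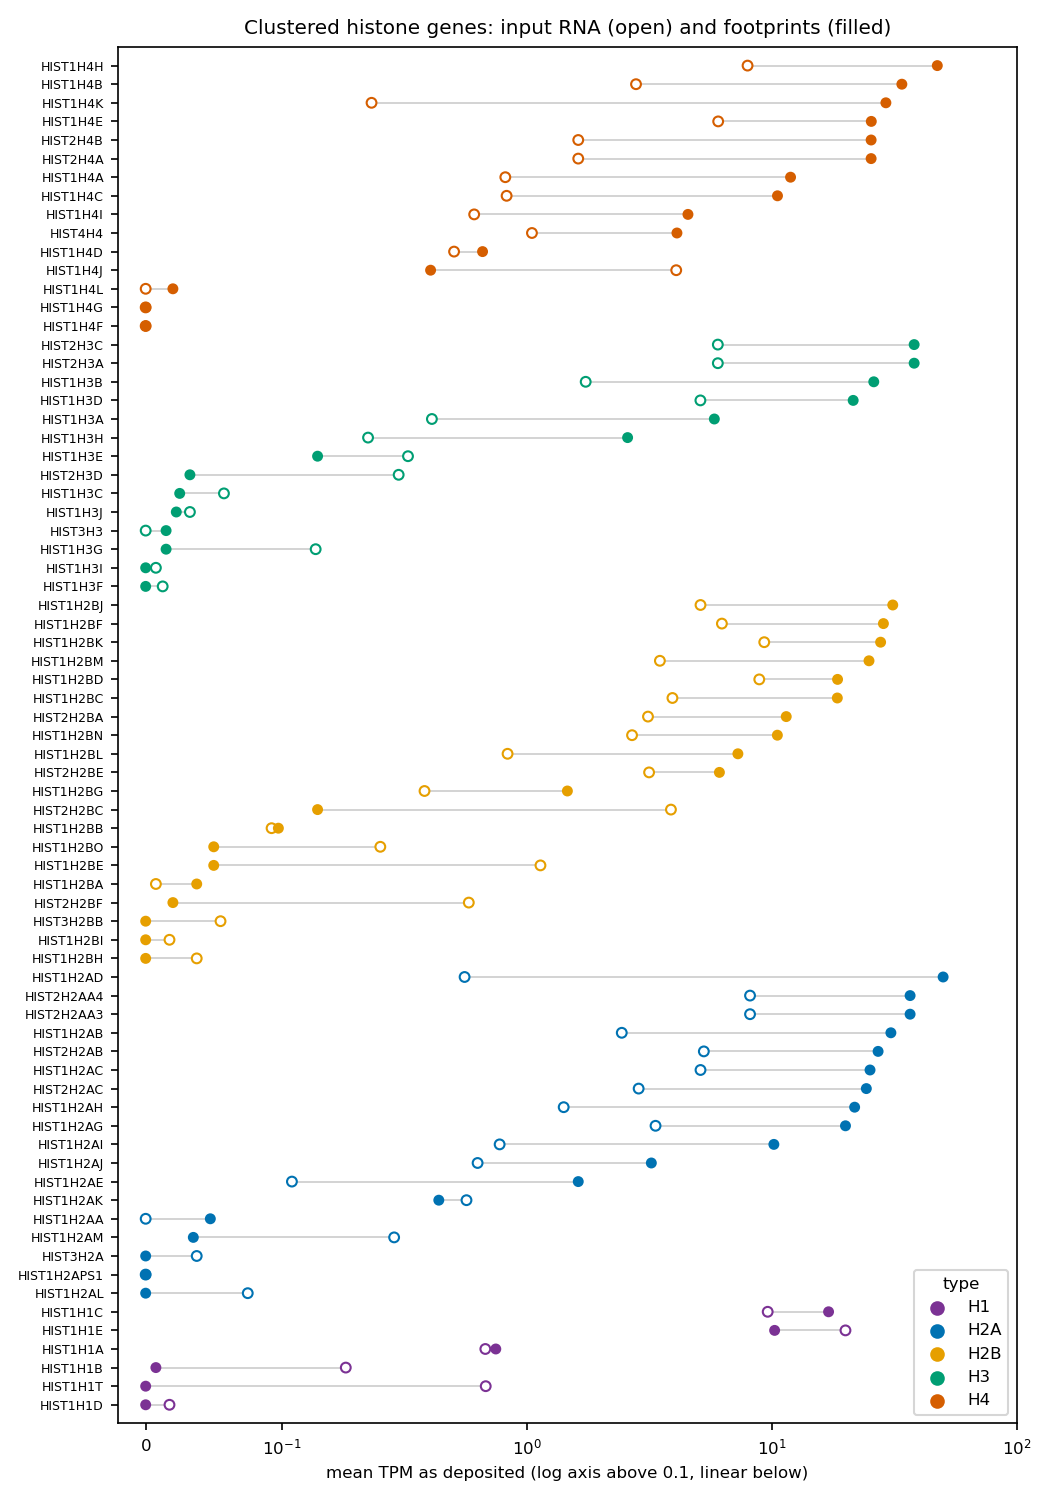
Mean TPM as deposited of each of the 73 genes in the 4 inputs (open) and the 4 footprint libraries (filled), coloured by type and sorted by footprint level within a type (log axis above 0.1, linear below). Of the genes, 32 reached a mean of 10 TPM in footprints and 1 in inputs, and HIST1H4J is a gene with the reverse order, at 4.08 TPM in inputs and 0.405 TPM in footprints.

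Several values of single genes are uncertain because the genes are near copies or lie on top of each other. HIST2H2AA3 and HIST2H2AA4, HIST2H3A and HIST2H3C, and HIST2H4A and HIST2H4B had equal values in every library, and how reads were shared between such copies cannot be read from the table. RefSeq spans overlap for 5 pairs of these genes, each of 2 different types. The whole of HIST1H2AD (chromosome 6, 26198784 to 26199293, minus strand) lies inside the span annotated for HIST1H3D on the same strand. HIST1H2AD had the highest footprints of all, at 48.83 and 48.20 TPM with the vector and 50.94 and 52.32 with QKI7. Its inputs were 0.45, 0 (listed), 0.46 and 1.32 TPM. Without HIST1H2AD the summed ratio of footprint to input was 25.9 in vector and 28.5 in QKI7 cells, close to the full sums. Sums over a type do not depend on how reads were split between copies of that type, but they do depend on the split between overlapping genes of different types, such as HIST1H2AD and HIST1H3D.

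Tests of single genes used limma on log2(rescaled TPM + 1), with adjusted p by the Benjamini-Hochberg method over 2716 entries that had a mean of at least 1 TPM in the 4 inputs and 0.2 TPM in the 4 footprint libraries as deposited. This minimum kept 30 of the 73 histone genes. It left out 26 that were low in both, 15 for their inputs alone and 2 for their footprints alone. The nearest to the input minimum were HIST4H4, kept at 1.05 TPM, and HIST1H2BL, left out at 0.835 TPM. Among those left out were genes with high footprints: HIST1H2AD, HIST1H4K (29.2 TPM), HIST1H4A (11.9 TPM), HIST1H4C (10.6 TPM) and HIST1H2AI (10.2 TPM). The 2 left out for their footprints alone, HIST1H2BE and HIST2H2BC, were both lower in footprints than in inputs, so the minimum took out genes that ran against the rest.

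In vector cells 29 of the 30 tested genes were higher in footprints than in input and 1 was lower, where 29.6% of all 2716 entries were called higher and 49.4% lower (78.9% in all). In QKI7 cells 29 were higher and 0 lower, beside 27.7% and 50.1% of all entries (77.8% in all). The median log2 difference of the 30 was 4.69 with the vector and 4.93 with QKI7, beside medians of -0.43 and -0.46 over all entries. In each construct 28 of the 30 stood above 3, as did 148 of all entries with the vector and 141 with QKI7. Ranked by this difference, 11 of the first 20 entries were histone genes in vector cells and 9 in QKI7 cells. Of the first 100 they were 26 and 28. All counts of the 30 take in 3 pairs with equal values in every library, with both genes of each pair counted. The HIST2H4 and HIST2H3 pairs were among the 11. The other entries of the first 20 in vector cells were COX7C, COX8A, PNMA6A, RPL29, RPS13, RPS15A, RPS28, SEC61G and SSH1. Ribosomal protein genes, another set of short and abundant mRNAs, had medians of 2.36 and 2.43 over 72 tested. Of these 72, 26 stood above 3 with the vector and 28 with QKI7. The 12 other tested genes with a genomic span under 1000 bases had medians of 1.24 and 1.26, with 3 above 3 in each construct. Genomic span is not mRNA length. Of the 68 histone genes with a RefSeq span, 59 were under 1000 bases, with a median of 496.5. On the TPM as deposited, where the filter kept 41 histone genes, 38 were higher and 3 lower in each construct, with medians of 2.07 and 2.21 against -1.81 and -1.97 for all entries. That filter, on the mean of all 8 libraries, can be passed on footprints alone.

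**Figure D3:**
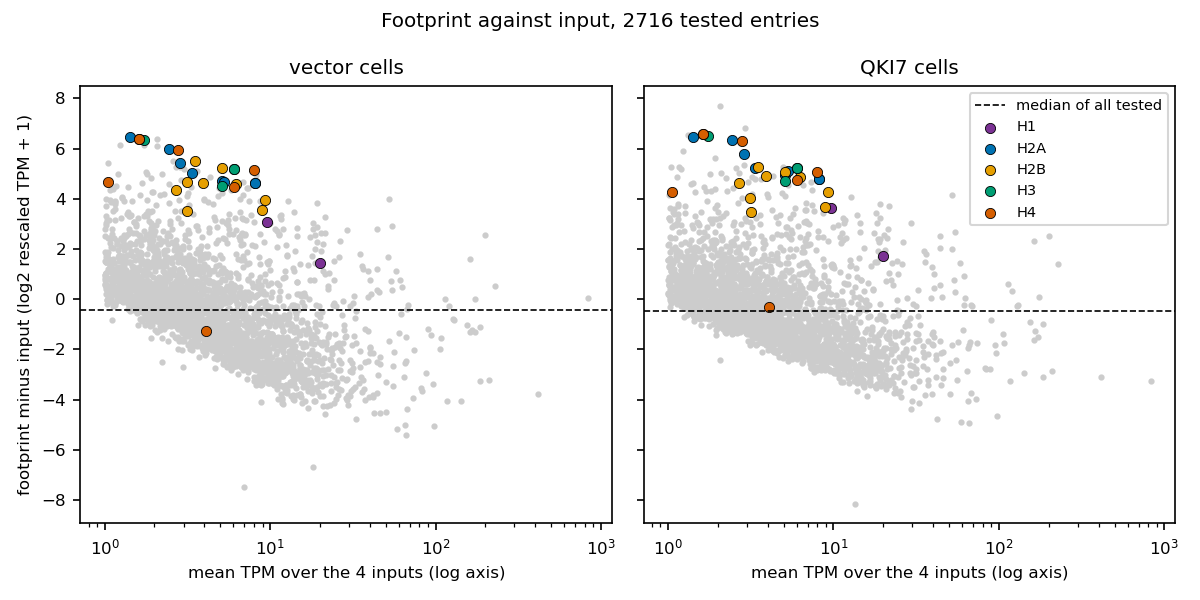
Difference between footprint and input (log2 of rescaled TPM + 1, mean of 2 libraries each) against the mean input TPM (log axis) for the 2716 tested entries, in vector and in QKI7 cells. Grey points are other genes, coloured points the 30 tested histone genes by type, and the dashed line is the median of all entries, at -0.43 and -0.46. The histone genes lie along the upper edge, with HIST1H1E (1.45 and 1.71) and HIST1H4J (-1.28 and -0.29) below the rest.

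Among the H4 genes the highest inputs were those of HIST1H4H, HIST1H4E and HIST1H4J. HIST1H4H (chromosome 6, 26285126 to 26285534) had inputs of 7.99 and 7.24 TPM with the vector and 9.05 and 7.59 with QKI7, and footprints of 47.44 and 51.94, then 45.39 and 44.85 TPM. All 4 footprint values lie above all inputs, and the log2 difference was 5.13 ± 0.092 (SE, adjusted p = 5.58e-10) in vector cells and 5.09 in QKI7 cells. Among the tested H4 genes the largest differences were those of HIST2H4A and HIST2H4B, which share their values, at 6.40 and 6.60, and of HIST1H4B at 5.97 and 6.31. With no minimum in inputs, 2 genes that passed on their footprints alone had larger estimates. HIST1H4K stood at 12.2 and 9.58 (SE 1.13), but its inputs were listed at 0 in 3 libraries, so the pseudocount sets the size. HIST1H4A (6.70 and 6.11) lay above these tested genes in vector cells only. HIST1H4B had inputs of 2.23 to 3.25 TPM and footprints of 31.95 to 36.96 TPM. The HIST2H4 pair ranked 2 and HIST1H4B 10 of the 2716 tested entries in vector cells.

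HIST1H4J (chromosome 6, 27824092 to 27824480) was the exception. Its inputs of 4.91 and 4.52 TPM with the vector and 3.70 and 3.17 with QKI7 lay above its footprints of 0.28, 0.45, 0.49 and 0.40 TPM. It was lower in footprints by a log2 difference of -1.28 ± 0.226 (SE, adjusted p = 0.000744) with the vector, and at -0.29 (adjusted p = 0.26) with QKI7. HIST1H4K, an H4 gene of the same part of the cluster, had the opposite pattern, with inputs listed at 0 in 3 libraries and 0.93 TPM in the fourth, and footprints of 31.87, 33.83, 24.05 and 27.21 TPM. Summed, HIST1H4J and HIST1H4K had a footprint to input ratio of 38.0 in vector and 41.9 in QKI7 cells, near the 43.9 and 46.6 of the whole type. Whether reads of this pair were listed under different members in inputs and footprints was not tested.

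The bases before the start of 3 H4 genes are shown because they carry the feature that set H4 apart from the other types, and because 1 of the 3 is a gene listed at 0 throughout. Each line gives the 100 bases that end just before the RefSeq start (GRCh38.p14), on the strand of the gene, with GGTCCG and TATAAA in capitals. HIST1H4H is chr6:26285535-26285634 (minus strand), HIST1H4B is chr6:26027284-26027383 (minus strand) and HIST1H4F is chr6:26240293-26240392 (plus strand).
HIST1H4H: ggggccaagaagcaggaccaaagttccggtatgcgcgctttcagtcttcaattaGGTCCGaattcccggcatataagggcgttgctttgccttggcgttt
HIST1H4B: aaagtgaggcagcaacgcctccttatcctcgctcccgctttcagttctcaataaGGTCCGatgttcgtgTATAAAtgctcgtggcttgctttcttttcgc
HIST1H4F: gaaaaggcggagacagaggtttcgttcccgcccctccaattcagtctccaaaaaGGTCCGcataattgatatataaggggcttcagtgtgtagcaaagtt

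GGTCCG is the core of the H4 promoter element that the factor HINFP is known to bind. RefSeq promoter windows (250 bases before to 50 after the start, both strands searched) were at hand for 60 of the 73 genes. GGTCCG was in 12 of 13 H4 windows, in 1 each of the H2A, H2B and H3 windows and in none of the 6 H1 windows, against 11.2% of 27305 windows of all genes. In all 12 H4 genes it was on the strand of the gene, and its first base lay 44 to 47 bases before the start. Only 1 H4 window lacked GGTCCG, so whether it sorts H4 genes by level could not be judged. The 12 genes with it ranged from 0 to 7.97 TPM in inputs and from 0 to 47.4 TPM in footprints. The only H4 window without it was that of HIST1H4G, which was listed at 0 throughout, as was HIST1H4F, whose window has it. A match is a stretch of letters, not a measured site.

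For H2A the highest inputs were those of the HIST2H2AA3 and HIST2H2AA4 pair, at 7.47 to 9.51 TPM each, followed by HIST2H2AB at 4.43 to 5.92 TPM. The pair's footprints were 38.96 and 38.58 TPM with the vector and 35.22 and 34.08 with QKI7. HIST1H2AH (chromosome 6, 27147106 to 27147562) had the largest difference between footprint and input of all 2716 entries in vector cells. Its inputs were 1.46, 1.31, 1.78 and 1.11 TPM and its footprints 23.40, 22.59, 21.06 and 20.14 TPM, which gave log2 differences of 6.45 ± 0.170 (SE, adjusted p = 3.99e-09) with the vector and 6.48 (rank 8) with QKI7. HIST1H2AB followed at 6.0 and 6.35 and HIST2H2AC at 5.42 and 5.80. The smallest of the 8 tested H2A genes were the HIST2H2AA pair at 4.62 and 4.80. Genes under the input minimum went beyond both ends of this range: with no such minimum HIST1H2AD stood at 10.9 and 8.61 (SE 1.00) and HIST1H2AK at 1.96 and 2.14 (SE 0.548). A vector input of HIST1H2AD was listed at 0, so the pseudocount weighs on its vector estimate. HIST1H2AM, which was too low in both kinds of library, had means of 0.288 TPM in inputs and 0.035 TPM in footprints.

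For H2B the highest inputs were those of HIST1H2BK (7.66 to 10.44 TPM), HIST1H2BD (8.29 to 9.77 TPM) and HIST1H2BF (5.28 to 6.88 TPM). HIST1H2BM led the tested H2B genes in footprint against input, at 5.50 with the vector and 5.25 with QKI7, from inputs of 2.93 to 4.18 TPM and footprints of 22.77 to 26.59 TPM. HIST1H2BJ followed at 5.24 and 5.08. With no minimum in inputs HIST1H2BL stood at 5.42 and 5.79 and HIST1H2BG at 3.59 and 5.71, both above HIST1H2BM in QKI7 cells. The QKI7 inputs of HIST1H2BG were 0.21 and 0.08 TPM, where the pseudocount weighs on the estimate. The lowest tested were HIST2H2BE at 3.51 and 3.48, HIST1H2BD at 3.55 and 3.66 and HIST1H2BK at 3.97 and 4.27. HIST2H2BA, listed as a pseudogene, had footprints of 8.25 to 15.82 TPM and log2 differences of 4.69 and 4.05. HIST2H2BC, another listed pseudogene, went the other way, with inputs of 3.52 to 4.31 TPM and footprints of 0 to 0.41 TPM. HIST1H2BE did so too, with means of 1.14 TPM in inputs and 0.05 TPM in footprints, and neither was tested.

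H2A and H2B genes often stand in pairs that face away from each other and share the stretch between their starts. Among the genes with a promoter window, 8 such H2A and H2B pairs were found, with 194 to 248 bases between starts. The stretch between HIST1H2BJ, on the minus strand to its left, and HIST1H2AG, on the plus strand to its right, is shown because both genes were well measured (chr6:27132796-27133042, plus strand, GRCh38.p14). Capitals mark TATAAA as well as CCAAT and the octamer ATTTGCAT on either strand, and in the last capital stretch TATAAA on the 2 strands overlaps.
HIST1H2BJ to HIST1H2AG: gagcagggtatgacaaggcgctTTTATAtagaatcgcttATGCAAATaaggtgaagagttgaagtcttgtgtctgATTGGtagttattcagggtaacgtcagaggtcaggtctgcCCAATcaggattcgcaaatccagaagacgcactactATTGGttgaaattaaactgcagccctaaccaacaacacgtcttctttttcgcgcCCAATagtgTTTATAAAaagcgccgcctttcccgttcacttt

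The octamer was in 11 of 16 H2A windows, 9 of 13 H2B windows and 1 of 12 H3 windows, in none of the H1 and H4 windows, and in 1.80% of all windows. In H2B genes it was mostly near the start, at a median of 49 bases before it and on the strand of the gene in 8 of 9. In H2A genes it was farther away, at a median of 192 bases and on the strand of the gene in 1 of 11. CCAAT was in every H1, H2A, H2B and H3 window and in 3 of 13 H4 windows, against 35.7% of all windows. TATAAA was in 40 of the 60 histone windows and in 12.0% of all windows.

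The members of a facing pair did not always have like levels. HIST1H2BJ and HIST1H2AG stood at 5.12 and 3.36 TPM in inputs and 31.2 and 20 TPM in footprints. HIST1H2BL and HIST1H2AI stood at 0.835 and 0.775 TPM in inputs and 7.28 and 10.2 TPM in footprints. HIST1H2BN and HIST1H2AK were less alike, at 2.69 and 0.568 TPM in inputs and 10.5 and 0.438 TPM in footprints. HIST1H2BM and HIST1H2AJ differed as well, at 3.50 and 0.63 TPM in inputs and 24.9 and 3.23 TPM in footprints. In 3 of the 8 pairs, those of HIST1H2AA, HIST1H2AM and HIST3H2A, both genes were under 0.3 TPM in inputs and in footprints.

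For H3 the highest inputs were those of HIST2H3A and HIST2H3C, which share their values, at 5.38 to 6.55 TPM, and HIST1H3D at 4.85 to 5.56 TPM. The pair's footprints were 35.27 to 40.12 TPM, with log2 differences of 5.18 and 5.21. HIST1H3B (chromosome 6, 26031589 to 26032099) had the largest difference of the 4 tested H3 genes, at 6.36 ± 0.173 (SE, adjusted p = 4.76e-09) with the vector and 6.51 with QKI7. With no minimum in inputs HIST1H3H stood at 6.60 and 5.19, above it in vector cells, from inputs of only 0.09 to 0.33 TPM. The inputs of HIST1H3B were 1.82, 1.42, 2.22 and 1.5 TPM and its footprints 25.67, 24.53, 27.23 and 26.94 TPM. Of the 14 H3 genes, these 4 reached 10 TPM in footprints and the next was HIST1H3A at 5.83 TPM.

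H1 was the type least shifted towards footprints, and 2 of its 6 genes were tested. HIST1H1E had the highest input of all histone genes, at 18.83 and 19.04 TPM with the vector and 19.62 and 22.50 with QKI7. Its footprints were 9.13, 10.03, 11.18 and 10.76 TPM, which gave log2 differences of 1.45 ± 0.098 (SE, adjusted p = 1.24e-06) and 1.71 on the protein-coding scale, and of -0.92 and -0.88 on the TPM as deposited, so its direction depended on the scale. HIST1H1C stood at 3.09 and 3.65. The remaining 4 H1 genes were not tested: HIST1H1A had means of 0.678 TPM in inputs and 0.748 TPM in footprints, HIST1H1T had inputs of 0.63 to 0.75 TPM with footprints listed at 0 in all 4 libraries, and HIST1H1B and HIST1H1D were under 0.2 TPM in both.

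All 6 H1 windows held CCAAT, with its nearest match starting 53 to 57 bases before the start and on the strand of the gene. The bases before HIST1H1C (chr6:26056471-26056570, minus strand) and HIST1H1D (chr6:26234988-26235087, minus strand) are shown as a gene with high values and a gene at or near 0 TPM in every library (GRCh38.p14, gene strand, CCAAT and TATAAA in capitals).
HIST1H1C: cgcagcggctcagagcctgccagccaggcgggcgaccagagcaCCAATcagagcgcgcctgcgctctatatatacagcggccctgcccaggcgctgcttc
HIST1H1D: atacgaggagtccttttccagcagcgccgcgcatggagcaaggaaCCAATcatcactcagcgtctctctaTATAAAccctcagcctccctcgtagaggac

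In input RNA, 4 of the 30 tested genes fell and 0 rose in QKI7 cells, where 7.77% of all 2716 entries were called lower and 1.07% higher (8.84% in either direction). The 4 were HIST1H2BK, HIST1H1C, HIST1H2AB and HIST1H2AC. The median log2 change of the 30 was -0.14, beside -0.06 over all entries. At an unadjusted limma p under 0.05 there were 9, beside 567 of all 2716 entries. In simulated data 100 entries, drawn from all 2716, were changed at each size. The test found 40% of log2 changes of 0.5 in inputs and 23% in footprints, so changes of that size may be missed. A low count of calls therefore does not show that levels were alike. The real footprint comparison called far more entries (33.7%), so its recovery may differ. Groups did not overlap for 10 lower genes and 1 higher gene, against 41.5% and 23.5% of all entries. In bulk RNA, fewer cells in S phase and less histone RNA per cell cannot be told apart.

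HIST1H1C, a linker histone gene (chromosome 6, 26055740 to 26056470), had inputs of 10.93 and 9.89 TPM with the vector and 9.10 and 8.59 with QKI7. The QKI7 values lie below the vector values, and the log2 change was -0.41 ± 0.084 (SE, adjusted p = 0.0215). HIST1H2BK, an H2B gene, had 10.44 and 9.69, then 9.49 and 7.66 TPM, and changed by -0.42 (adjusted p = 0.0282). The H2A genes HIST1H2AC and HIST1H2AB changed by -0.31 (adjusted p = 0.0372) and -0.35 (adjusted p = 0.0483). As deposited, HIST1H2AC had 5.21 and 5.49 TPM with the vector and 5.23 and 4.55 with QKI7, so its groups overlap before the rescaling. HIST1H1C lost the threshold without vector input replicate 1 or either QKI7 input library, HIST1H2BK without vector input replicate 1 or QKI7 input replicate 2, HIST1H2AC without any 1 of the 4 inputs, and HIST1H2AB in 5 of the 8 fits with 1 library left out. Without vector input replicate 1, 0 genes were called, and without QKI7 input replicate 1, 2 were. With inputs scaled to the spike-ins, or with quantile normalization, 0 of the 30 were called, and on the TPM as deposited 6 were called (4 higher and 2 lower), none of them among the 4.

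Summed over all 73 genes, the input level was 4653 and 4267 rescaled TPM with the vector and 3888 and 4016 with QKI7. The QKI7 libraries lie below the vector libraries, by -0.17 on the log2 scale, and the exact two-sided permutation p of 0.33 is the smallest that 2 against 2 libraries allow. With inputs scaled to the spike-ins the difference was -0.050, and as deposited it was 0.0073, so the size of this difference depended on the scale. The overexpressed QKI mRNA is itself part of the protein-coding total, at 1749 of 45277 and 1580 of 42469 TPM in QKI7 inputs. In vector inputs it was 3.01 of 37331 and 3.45 of 40114 TPM. Its part in the summed and single-gene input differences was not tested. By type the differences were -0.13 for H1, -0.27 for H2A, -0.14 for H2B, -0.08 for H3 and -0.22 for H4, with exact p from 0.33 to 1.

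**Figure D4:**
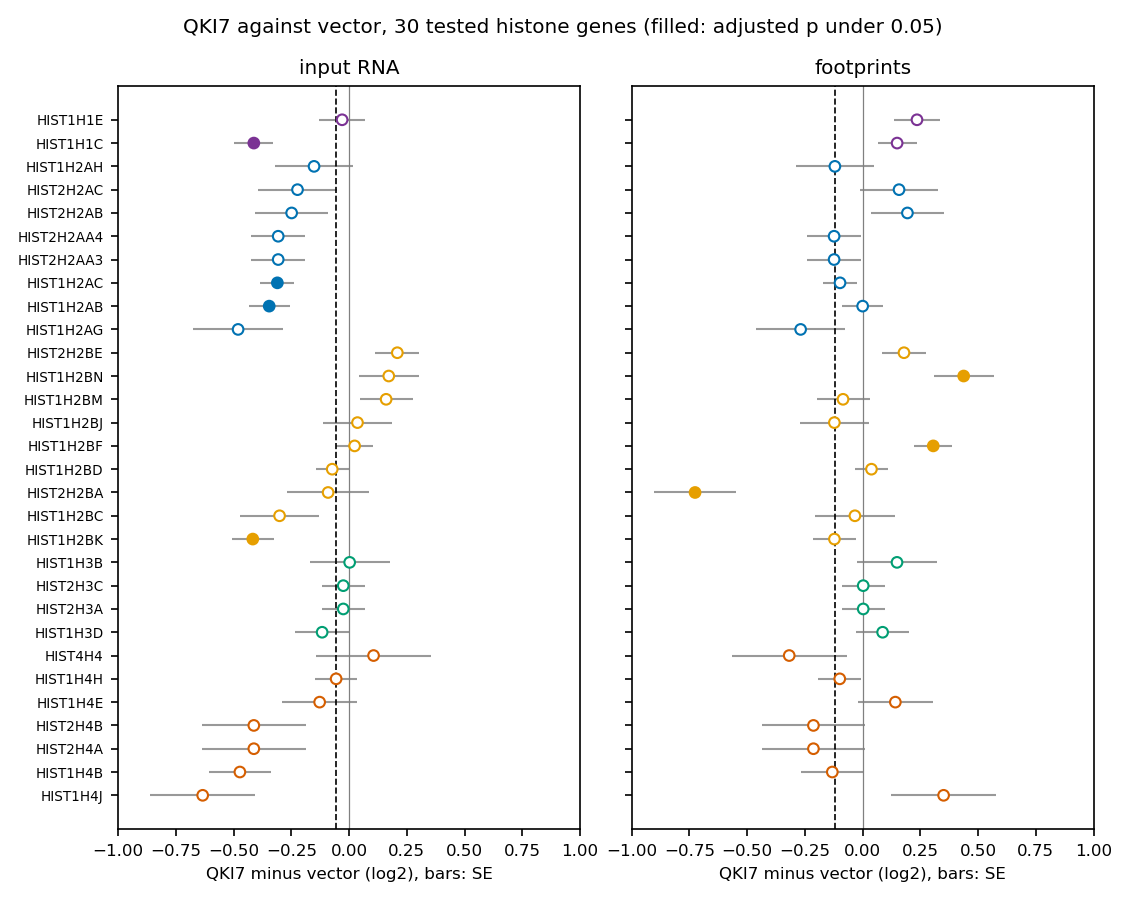
Log2 change of the 30 tested histone genes in QKI7 against vector cells, in input RNA (left) and footprints (right), by type. Points are estimates on the log2(rescaled TPM + 1) scale, bars are standard errors, filled points passed an adjusted p of 0.05, and the dashed line is the median of all 2716 entries (-0.06 and -0.12). Filled points are 4 lower genes in inputs, and 2 higher and 1 lower gene in footprints.

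In footprints 2 of the 30 genes rose and 1 fell in QKI7 cells, beside 13.9% of all entries called higher and 19.8% called lower (33.7% in all). HIST2H2BA, the H2B entry listed as a pseudogene, had footprints of 13.08 and 15.82 TPM with the vector and 8.25 and 8.69 with QKI7, a log2 change of -0.73 ± 0.178 (SE, adjusted p = 0.016). HIST1H2BF had 24.94 and 26.91, then 32.70 and 29.72 TPM, and changed by 0.31 (adjusted p = 0.0223). HIST1H2BN had 9.70 and 8.51, then 12.01 and 11.95 TPM, and changed by 0.44 (adjusted p = 0.0331). All 3 are H2B entries, and their groups do not overlap. HIST1H2BF lost the threshold without vector footprint replicate 1 or QKI7 footprint replicate 1, and HIST1H2BN and HIST2H2BA lost it without vector footprint replicate 2 or either QKI7 footprint library. None of the tested H1, H2A, H3 or H4 genes passed the threshold in footprints.

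The median log2 change of the 30 genes in footprints was -0.02, beside -0.12 over all entries, and groups did not overlap for 7 higher and 12 lower genes, against 23.6% and 39.0% of all entries. Summed over the 73 genes, footprints were 123700 and 120800 rescaled TPM with the vector and 118800 and 120400 with QKI7, a log2 difference of -0.03 (exact two-sided permutation p = 0.33). The H4 sums were 32300 and 32570, then 29360 and 29780, a difference of -0.13, and the H1 sums were 3744 and 3707, then 4296 and 4165, a difference of 0.18. Both of these types kept their groups apart, each with an exact p of 0.33. The H2A and H2B sums overlapped between constructs. Of the 3 calls, 0 were left without QKI7 footprint replicate 1 and 1 without QKI7 footprint replicate 2, and median-of-ratios scaling gave 5 calls and turned the sum over all genes to 0.077. In these libraries the footprints of RELN, an extracellular matrix gene, went from 1.27 to 9.14% of protein-coding TPM with QKI7, and its part in these small differences was not tested.

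The change of footprints relative to input RNA, often called translation efficiency, was tested as the interaction of library kind and construct. It passed for 1 of the 30 genes, upwards, beside 8.32% of all entries called higher and 3.72% lower (12.0% in all). That gene was HIST1H1C, whose inputs fell as given above while its footprints stood at 16.92 and 15.90 TPM with the vector and 17.72 and 17.70 with QKI7 (log2 change 0.15, adjusted p = 0.202). The interaction was 0.56 ± 0.119 (SE, adjusted p = 0.0199). It lost the threshold without vector input replicate 1 or without either QKI7 input library, with estimates from 0.44 to 0.69 over all libraries left out in turn. The interaction was positive for 24 of the 30 genes, beside 1363 of all 2716 entries, with a median of 0.20 beside 0.00 for all entries. The 24 take in both genes of the 3 pairs with equal values. On the TPM as deposited the medians were -0.06 and -0.16. The count of calls went to 0 without QKI7 input replicate 1 or vector input replicate 1, to 3 without vector input replicate 2 or QKI7 input replicate 2, and to 2 without vector footprint replicate 2. HIST1H4J had the largest estimate, 0.98 (adjusted p = 0.0825), from the low footprints described above.

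Genes that act around the clustered histones were read from 3 lists. Of 12 replication-independent histone genes, 8 were tested. In input RNA 2 of the 8 fell in QKI7 cells and 0 rose, beside 7.77% and 1.07% of all entries. H3F3B had 18 and 18.26 TPM in vector inputs and 13.28 and 12.38 in QKI7 inputs, a log2 change of -0.68 ± 0.122 (SE, adjusted p = 0.0114). H2AFZ had 7.97 and 7.53, then 7.21 and 6.45 TPM, and changed by -0.36 (adjusted p = 0.0289). Both had QKI7 values below the vector values. Without vector input replicate 1 or either QKI7 input library, 0 of the list calls in input RNA were left, and without vector input replicate 2 there was 1. In footprints the linker variant H1FX rose by 0.69 (adjusted p = 0.0037) and the linker variant H1F0 changed by -0.25 (adjusted p = 0.0156), and H1FX also passed for translation efficiency, at 0.71 (adjusted p = 0.0305). Over all entries 13.9% were called higher and 19.8% lower in footprints, and 8.32% and 3.72% for translation efficiency.

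In footprint against input these variants split, with 3 higher and 3 lower of 8 in vector cells and a median of 0.38. Over all entries 29.6% were higher and 49.4% lower there, with a median of -0.43. H2AFZ, which codes for H2A.Z, was near the clustered genes, at 4.44 with the vector and 4.68 with QKI7, and the next of the list was H1FX at 1.15 and 1.86. H3F3B stood at -0.89 and -0.40, H1F0 at -1.26 and -1.38, and H2AFY, the macroH2A gene, at -2.18 and -2.09. H3F3A, which codes for the same H3.3 protein as H3F3B, was listed at 0 in all 8 libraries. It is a gene that most cells use, so a listed 0 in this table is not by itself a sign of a silent gene.

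Of 25 genes for the transcription, processing and decay of histone mRNA, 7 were tested. In input RNA 0 of the 7 passed in either direction by limma (0 at an unadjusted p under 0.05), beside 8.84% of all entries. Of all 2716 entries, 567 had an unadjusted p under 0.05 there. In footprints the scaffold protein gene SYMPK rose by 0.85 (adjusted p = 0.00682) and the exosome gene EXOSC10 by 0.78 (adjusted p = 0.0238), from vector means of 0.17 and 0.16 TPM that are close to the minimum. SYMPK also passed for translation efficiency, at 1.09 (adjusted p = 0.022). Over all entries 13.9% were called higher in footprints and 8.32% for translation efficiency. In vector cells 2 of the 7 were higher in footprints than in input and 4 lower, with a median of -2.50. Over all entries these values were 29.6%, 49.4% and -0.43. SLBP had inputs of 4.06, 4.32, 4.32 and 3.65 TPM and footprints of 0.22, 0.18, 0.09 and 0.23 TPM, and NPAT, the coactivator of histone genes, had inputs of 1.60 to 2.48 TPM and footprints of 0.04 to 0.08 TPM. Both were under the footprint minimum and were not tested.

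Of 17 histone chaperone genes, 15 were in the table and 9 tested. By limma 0 of the 9 passed in inputs, in footprints or for translation efficiency (1, 0 and 0 at an unadjusted p under 0.05). Over all entries 8.84%, 33.7% and 12.0% passed, and 567, 1226 and 816 of 2716 had an unadjusted p under 0.05. In vector cells 1 of the 9 was higher in footprints than in input, HAT1 at 1.44, the gene of an enzyme that acetylates new H4, and 5 were lower, with a median of -0.60. Over all entries 29.6% were higher and 49.4% lower, with a median of -0.43. NASP, which escorts H3 and H4, stood at -1.65 with the vector and -1.82 with QKI7, and SSRP1, of the FACT complex, at -3.42 and -3.36. The median of this list lay near that of all entries and far below that of the clustered histone genes, a difference that was described and not tested.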

How the data were processed

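The deposited table holds TPM, with 2 decimals, for 8 libraries. Per the submitters' processing notes the authors used STAR and RSEM 1.2.31 with GRCh38; settings and use of strand are not given in the sources used here. Symbols were matched to RefSeq (GRCh38.p14): 23970 entries by symbol, 1395 by an older symbol, 1537 not. TPM were rescaled to sum to 1000000 over 18791 entries, those matched to protein-coding genes and all 73 histone entries. Of the 73, 3 are listed as pseudogenes and 5 had no match. The rescaling was made because other entries fill most of the footprint TPM. A pseudocount of 1 on the deposited values would outweigh mRNA footprints.

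Tests used limma 3.58.1 in R 4.3.3 (lmFit, eBayes with a variance trend) on log2(rescaled TPM + 1), as 4 group means with 4 residual degrees of freedom, with two-sided p-values adjusted by the Benjamini-Hochberg method and a threshold of 0.05. A log2 change on this scale understates low genes. Entries needed a mean of 1 TPM in inputs and 0.2 TPM in footprints. Sums were compared by exact permutation (scipy 1.17.1). TPM keeps no depth, so no counting interval is given. A check on simulated data changed 100 of 2716 entries at each size, drawn from all of them. It found 75% of log2 changes of 1 made in inputs and 76% of those made in footprints, and 40% and 23% of changes of 0.5.

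Groups came from the labels. Named were, per type, the 3 genes highest in input and the 3 highest in footprint against input, the genes past the threshold, those next to the minimum, members with equal values, up to 4 past the threshold per list, and SLBP, NPAT, H2AFZ, H3F3B and QKI; other genes were singled out after their values were seen. The members and lists were chosen with earlier results of these data known. Alternatives covered the scale, pseudocount, filter, variance trend, replicate block and each library left out.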

Additional observations from a re-analysis of the deposited data

Results flagged for a closer look

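HIST1H1C drew attention because QKI7 moved its input RNA and its footprints differently: the footprint change minus the input change was 0.56 on the log2 scale (limma, adjusted p = 0.0199), with inputs at -0.41 and footprints at 0.15. The interaction kept its direction in all 8 fits that left out 1 library and in all 11 other settings, and lost the threshold in 3 of each. Its cause was not tested.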

How the results depend on the processing

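The count of footprint against input calls held for the clustered histone genes in every fit that left out 1 library (30 to 30 calls with the vector, 29 to 29 with QKI7). A filter of 1 rescaled TPM over 8 libraries gave 51 and 47 calls of 62 genes tested (45 higher and 6 lower with the vector, 44 and 3 with QKI7). With no minimum in inputs (chosen after seeing the data) the calls were 45 of 45 with the vector and 44 with QKI7. The genes this setting adds passed on their footprints alone, which favours higher calls, so these counts add no support. Filters on the mean of all 8 libraries, here and for the TPM as deposited, can be passed on footprints alone too. As deposited, 38 were higher and 3 lower in each construct, the H1 sums turned, to ratios of 0.871 and 0.930, and HIST1H1E reversed, to -0.92 with the vector and -0.88 with QKI7. The QKI7 calls moved with most choices. The 4 input calls became 0 with quantile normalization, with the 1 rescaled TPM filter, without a variance trend and with inputs scaled to spike-ins, 1 with median-of-ratios scaling (chosen after seeing the data) and 7 with no minimum in inputs, with 0 to 5 over left-out libraries. The 3 footprint calls became 6 with quantile normalization, 1 without a variance trend and 5 with median-of-ratios scaling, with 0 to 3 over left-out libraries. The 1 translation efficiency call became 4 as deposited, 4 with no minimum in inputs, and 0 with the 1 rescaled TPM filter or without a variance trend, with 0 to 3 over left-out libraries. The summed input difference of -0.17 was 0.0073 as deposited, -0.11 with median-of-ratios scaling and -0.050 with spike-ins, and ran from -0.24 to -0.11 over left-out libraries. The summed footprint difference of -0.03 was -0.070 as deposited and 0.077 with median-of-ratios scaling, and ran from -0.05 to -0.01. For the 3 surrounding lists together, the 2 input calls became 13 as deposited, 0 with the 1 rescaled TPM filter, and 1 without a variance trend, with median-of-ratios scaling or with spike-ins (0 to 2 over left-out libraries). Their 4 footprint calls became 1 as deposited, 7 with that filter and 2 with the stricter filter (3 to 6), and their 18 calls of footprint against input in vector cells became 35, 40 and 10 (17 to 23). Apart from fewer or more genes tested under the filters, the causes were not tested. With the replicate number as a block, the counts were 4, 3, 1, 30 and 29 as before and the list counts 2, 4 and 19. Same-numbered libraries deviated together at correlations of -0.06 to 0.02, so the numbers were not taken to pair them. Depth is unknown, and 2 libraries a group limit precision.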

Other observations

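RNU7-1, the U7 RNA that guides the cut at the end of histone mRNAs, is not a protein-coding entry and was not tested. It was listed at 0 TPM in all 4 inputs and stood at 65.52 and 73.05 TPM in vector footprint libraries and at 84.32 and 69.91 TPM in QKI7 footprint libraries.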
